A study of Homo sapiens with 12 samples.

Results

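Knockdown of mutant NRAS in unstimulated HT1080 cells was described across 13835 genes, those with 1 TPM or more in 3 or more of the 6 libraries compared, out of 55243 gene symbols that occur once in the deposited table. TPM is a relative abundance, scaled for transcript length and to the same total in every library. HT1080 is an established human cell line from a fibrosarcoma, a tumour of connective tissue, and its NRAS gene carries the activating mutation for which the siRNA is named. One group received a control siRNA (siNC) and the other the siRNA siQ61K, each with 3 libraries. Both received DMSO and no poly(dA:dT). The series holds 12 libraries, the other 6 being the same siRNAs with poly(dA:dT), a double-stranded DNA polymer that cells sense as foreign, and its stated subject is the interferon-alpha response in NRAS-mutant tumours. The labels give no siRNA dose, no time after transfection and no second siRNA against NRAS, so the part played by other targets of siQ61K cannot be told apart from that of NRAS. Nothing in the labels makes the replicates separate cultures, and the p-values then reflect spread that may be only technical.

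RAS proteins are small GTPases at the inner face of the cell membrane. When bound to GTP they activate RAF kinases, which activate MEK and then ERK. ERK induces transcription of growth-promoting genes and also of its own inhibitors, among them Sprouty proteins and dual-specificity phosphatases. Mutations that impair GTP hydrolysis keep NRAS in its active form, as in many melanomas and some sarcomas.

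NRAS mRNA was reduced in every siQ61K library. It measured 59.6, 60.6 and 41.4 TPM in the siNC libraries, against 15.5, 15.2 and 19.9 TPM after siQ61K. All siQ61K values lay below all siNC values. The log2 fold change was -1.61 (SE 0.16, limma adjusted p = 2.18e-05), on the log2(TPM + 1) scale used for all fold changes here, which understates the change of genes with low values. An exact two-sided permutation test over the 3 and 3 libraries gave p = 0.1, the smallest it can give. TPM sums both alleles, so mutant and wild-type NRAS were not separated.

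HRAS, another classical RAS gene, was not called. It measured 74.6, 72.3 and 82.6 TPM with siNC and 88.6, 92.4 and 89.4 TPM with siQ61K (log2 fold change 0.24, adjusted p = 0.183). After the correction for GC content and length described next, its value turned to -0.23 (adjusted p = 0.0452), so no direction is given for HRAS.

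**Figure D1:**
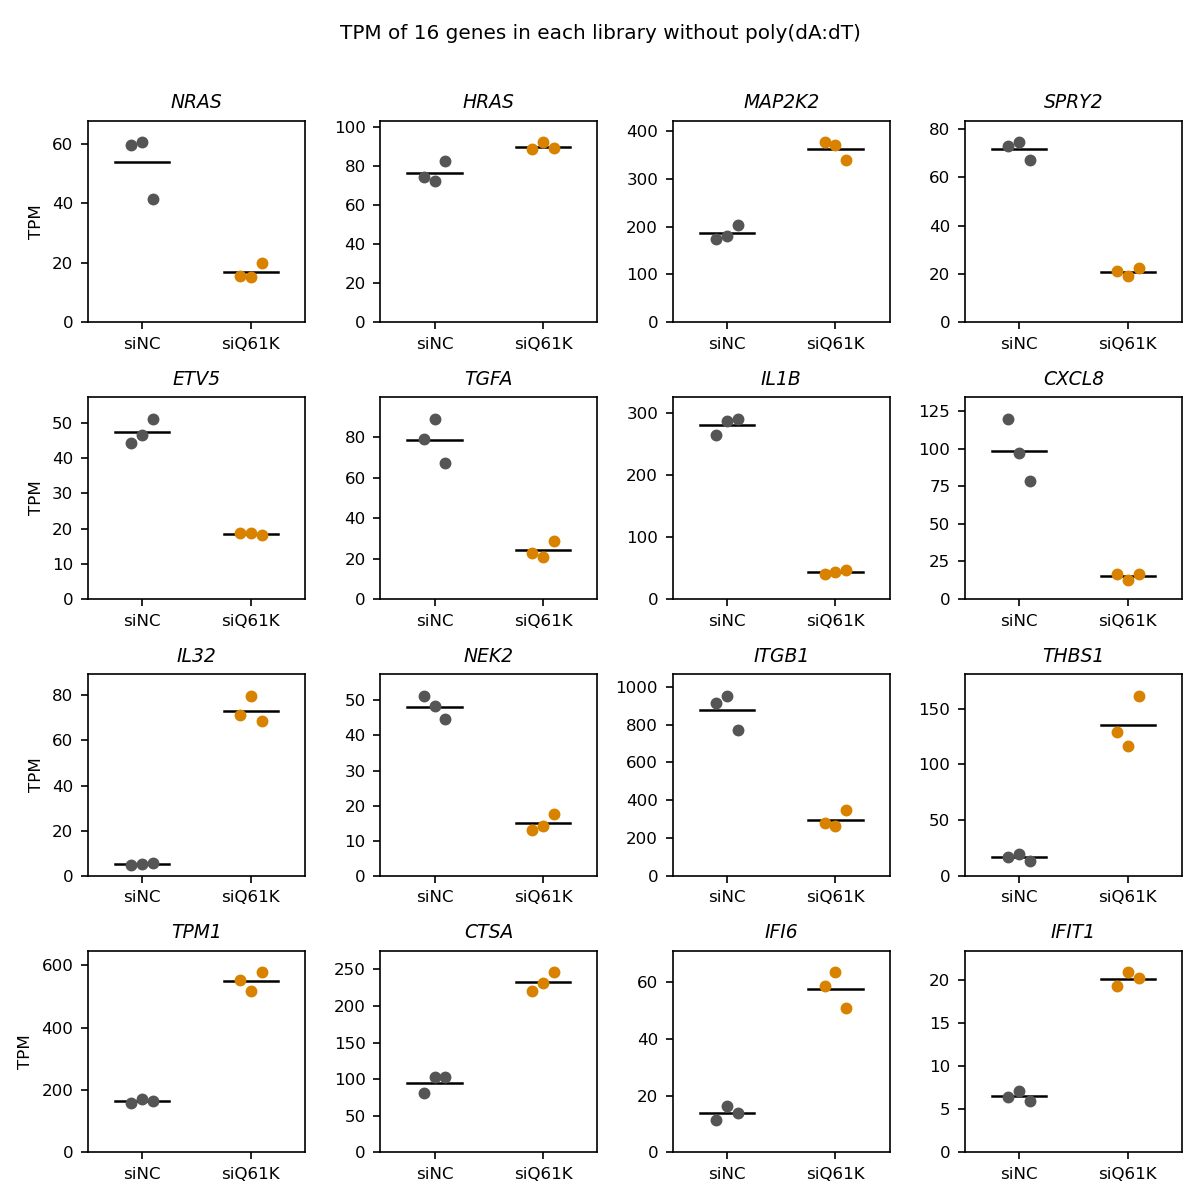
TPM (vertical axis, starting at 0) of 16 genes in each of the 3 siNC and 3 siQ61K libraries without poly(dA:dT). Points are libraries and horizontal lines are group means; the groups do not overlap for any of the 16 genes.

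Across all genes, 2484 were called higher (18.0%) and 2228 lower (16.1%) at a Benjamini-Hochberg adjusted p under 0.05, together 4712 genes or 34.1% of those tested. A change of at least 2-fold was seen in 590 of the higher and 410 of the lower genes. Leaving out siNC replicate 1 reduced the number called to 3120. Of the genes tested, 192 passed the level filter only through the siQ61K libraries and 78 only through the siNC libraries, and without these 4536 of 13565 genes were called. Protein-coding genes were called more often (36.34%) than other gene types (20.87%).

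The direction of change followed the GC content of the transcript. Of the decile of genes with the lowest GC content, 522 were called lower and 28 higher. Of the decile with the highest, 28 were called lower and 630 higher. The strength of the GC trend differed between libraries of a group. Across genes, the deviation of a library from the mean of the 6 was correlated with GC content. Spearman rho was -0.556, -0.483 and -0.158 in the siNC libraries and 0.505, 0.49 and 0.28 in the siQ61K libraries. Because that mean holds both groups, the opposite signs partly restate the group comparison and are not separate showings of a trend. When each library was corrected for GC content and transcript length by a smooth curve, 3989 of 13459 genes were called (29.6%), 1915 higher (14.2%) and 2074 lower (15.4%). Of the 4604 called genes that entered the corrected fit, 2852 were called again in the same direction and 1 in the opposite one. Counts from this corrected fit are therefore given beside those from the deposited values in each group of genes below. The background for the counts of every list is the share of all genes called. It was 18.0% higher and 16.1% lower with deposited values, and 14.2% and 15.4% after correction. Whether the trend arose in the cells or in library preparation was not tested.

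**Figure D2:**
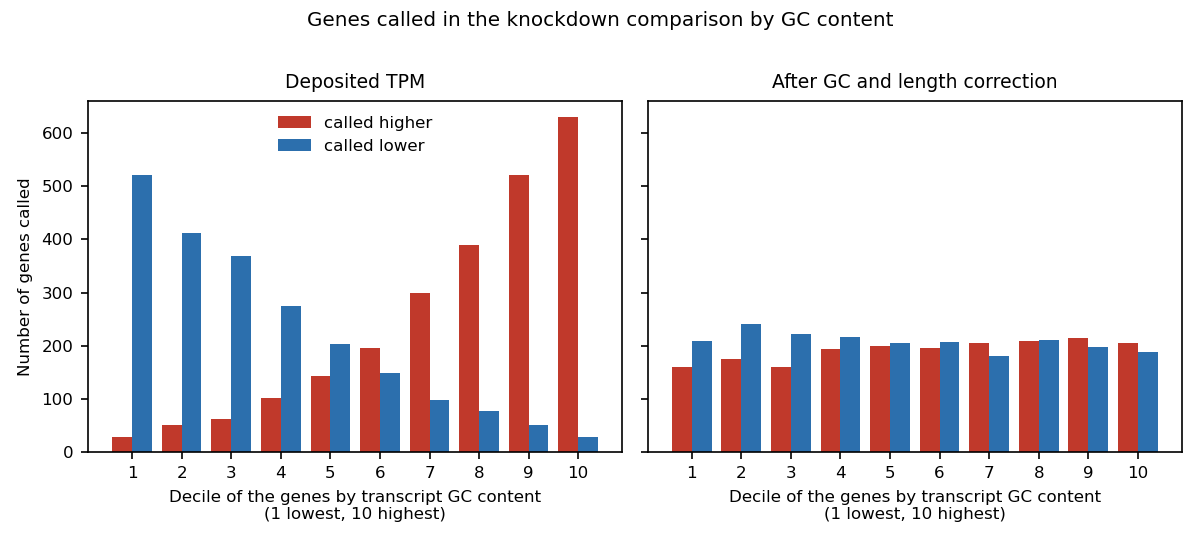
Number of genes called higher or lower with siQ61K (vertical axis) in each decile of the genes ordered by transcript GC content (horizontal axis), from deposited TPM on the left and after correction for GC content and length on the right. With deposited values the lowest decile held 522 lower and 28 higher genes and the highest decile 28 and 630; after correction these were 209 and 160, and 187 and 205.

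**Figure D3:**
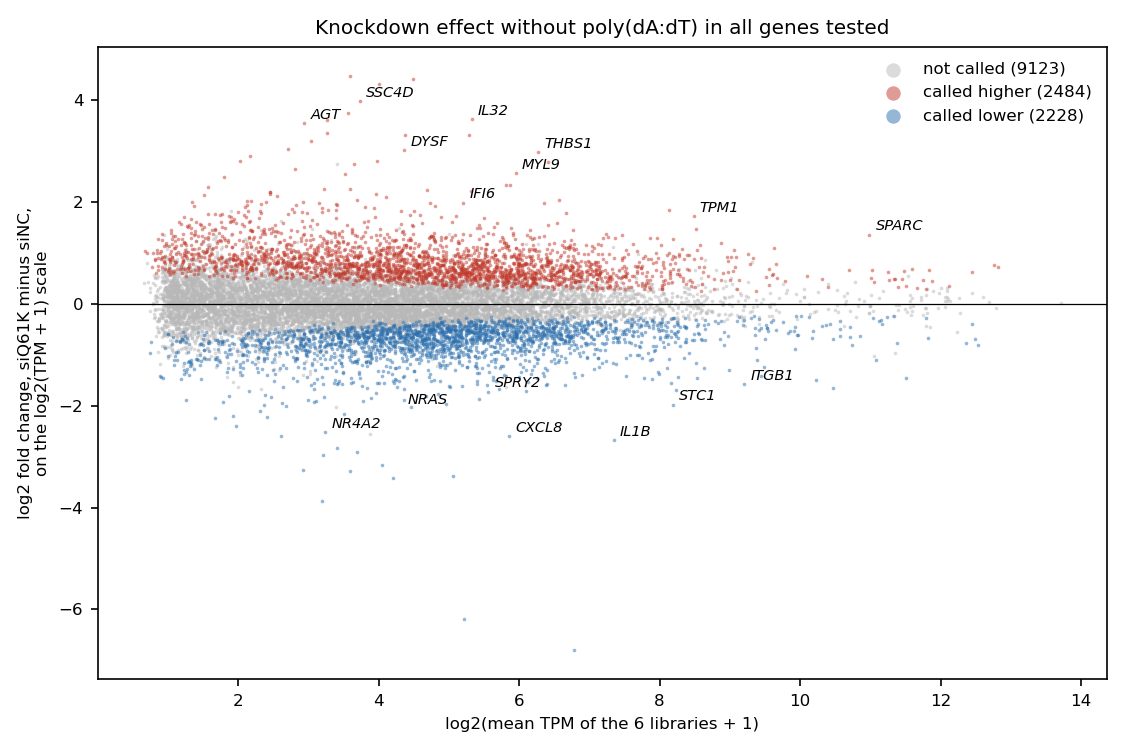
Log2 fold change of siQ61K over siNC (vertical axis) against log2 of the mean TPM of the 6 libraries plus 1 (horizontal axis) for the 13835 genes tested. Points are genes, coloured by the 2484 called higher, the 2228 called lower and the 9123 not called. Selected genes are labelled, of which SSC4D is not discussed in the text.

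The libraries held most of the markers of a mesenchymal line but not all. VIM, which encodes the intermediate filament vimentin, was at 5423 to 7742 TPM in the 6 libraries, and 14 of 19 mesenchymal markers passed the filter, of which 3 rose and 5 fell (CD44, a hyaluronan receptor gene, by 0.81 on the log2 scale). THY1, NT5E, PRRX1 and FOXF1, also markers of such cells, did not exceed 0.368 TPM in any of the 6 libraries. Of 11 immune markers 1 passed, CD68, and KRT5 and GRHL2 (epithelial) and MS4A1 (B cell) were listed at 0 in all 6 libraries, while EPCAM, CDH1 and PTPRC did not exceed 0.120 TPM. The summed level of the immune list was 160 to 219 TPM with siNC and 97.9 to 125 TPM with siQ61K, nearly all of it CD68, a lysosomal glycoprotein (log2 fold change -0.77). The summed level of the epithelial list was 515 to 655 TPM with siNC and 691 to 781 TPM with siQ61K, carried by the keratins KRT8 and KRT18, of which KRT8 was called (0.47) but not after the GC correction or without siNC replicate 1, siQ61K replicate 1 or siQ61K replicate 2 (0.37 to 0.55). No endothelial marker passed the filter.

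Within the RAS pathway itself, 23 components were tested, of which 4 rose and 5 fell, beside 18.0% and 16.1% of all genes. Both shares were near the background, and those that fell include NRAS itself. The median log2 fold change was 0.00 against 0.01 over all genes. MAP2K2, which encodes the kinase MEK2, measured 174, 181 and 204 TPM with siNC and 377, 371 and 339 TPM with siQ61K (log2 fold change 0.96, 0.53 after the GC correction). MAP2K1, encoding MEK1, fell by 0.51 on the log2 scale. MAPK3, encoding the kinase ERK1, was called higher (0.55) but not after the correction (0.12) or without siNC replicate 1, siQ61K replicate 1 or siQ61K replicate 3 (0.36 to 0.65). RASA2, a GTPase-activating protein that turns RAS off, went from 16.1, 16.8 and 11.2 TPM to 6.55, 6.27 and 9.08 TPM and fell by 0.92 on the log2 scale. SOS2, a nucleotide exchange factor that turns RAS on, was lower (-0.69), but its call was lost without siNC replicate 2 or siQ61K replicate 2 (-0.84 to -0.57 over the fits that left out 1 library). The RAF kinase gene BRAF (-0.10) and the exchange factor gene SOS1 (-0.12) were not called, and their values changed sign with the processing. After the GC correction 3 of the 23 components were higher and 6 lower, and the count lower was 3 without siNC replicate 2 or siQ61K replicate 2 and 8 without siQ61K replicate 3.

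Most tested genes in the list of ERK feedback inhibitors fell, whereas the immediate-early genes, given next, moved in both directions. Of 16 ERK feedback inhibitors, ETV factors and other ERK targets tested, 11 fell, none rose and 5 were not called, with a median log2 fold change of -0.94, and 13 fell after the GC correction. SPRY2, a Sprouty inhibitor of receptor and RAS signalling, went from 73.0, 74.6 and 67.1 TPM to 21.2, 19.3 and 22.5 TPM (log2 fold change -1.72, SE 0.11, adjusted p = 4.74e-07), and SPRY4, its paralogue, fell by 1.02 on the log2 scale. DUSP4, a nuclear phosphatase of ERK, measured 67.9, 77.7 and 78.7 TPM with siNC and 25.2, 23.1 and 28.7 TPM with siQ61K. DUSP5, another nuclear ERK phosphatase, measured 116, 119 and 119 TPM with siNC and 41.5, 40.1 and 50.4 TPM with siQ61K. In all of these the siQ61K libraries were well below the siNC libraries, with no overlap. The ETS-family transcription factor genes ETV1, ETV4 and ETV5 fell by 1.57, 0.91 and 1.31 on the log2 scale. The feedback inhibitor genes DUSP7 (0.15), SPRED2 (-0.35) and SPRED3 (-0.45), and the receptor genes EPHA2 (-0.39) and EPHA4 (-0.68), were not called. DUSP6, the cytoplasmic ERK phosphatase, did not pass the filter of 1 TPM.

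Immediate-early and AP-1 genes moved in both directions. Of 15 tested, 5 rose (JUNB 0.98, JUN 0.85, MYC 0.84, FOSL2 0.54 and JUND 0.54) and 4 fell (DUSP1 -1.87, EGR1 -1.33, FOSL1 -0.82 and MAFF -0.80). EGR1, an immediate-early zinc-finger factor, measured 16.6, 14.3 and 14.3 TPM with siNC and 5.18, 4.18 and 7.04 TPM with siQ61K. FOSL1, the AP-1 subunit FRA1, measured 238, 249 and 280 TPM with siNC and 138, 133 and 165 TPM with siQ61K. MYC measured 27.1, 30.7 and 28.6 TPM with siNC and 54.7, 46.4 and 56.2 TPM with siQ61K, so that the oncogene MYC was higher in every knockdown library while FOSL1 and EGR1 were lower in every one. After the GC correction 5 were higher and 5 lower. JUND lost its call there (-0.06), and FOSL2 did without siNC replicate 1, siNC replicate 2 or siQ61K replicate 3 (0.37 to 0.66).

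Of 5 EGF family ligands tested, TGFA and HBEGF fell and none rose, also after the GC correction. EGF, NRG1 and NRG2 were not called (0.31, 0.17 and 0.45), and the list median was 0.17. TGFA, encoding transforming growth factor alpha, went from 79.0, 89.2 and 67.4 TPM to 22.6, 20.7 and 28.7 TPM (log2 fold change -1.67). HBEGF, encoding heparin-binding EGF-like growth factor, went from 64.9, 67.7 and 69.5 TPM to 34.7, 31.2 and 37.2 TPM (-0.95). Of 19 receptor tyrosine kinases and IRS adaptors, 5 were called higher and none lower, but only 3 after the GC correction, 2 without siNC replicate 1, and 3 without siNC replicate 2 or siQ61K replicate 3. ERBB2, a receptor of the EGF receptor family, was among those called in both fits (0.93, and 0.58 corrected).

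**Figure D4:**
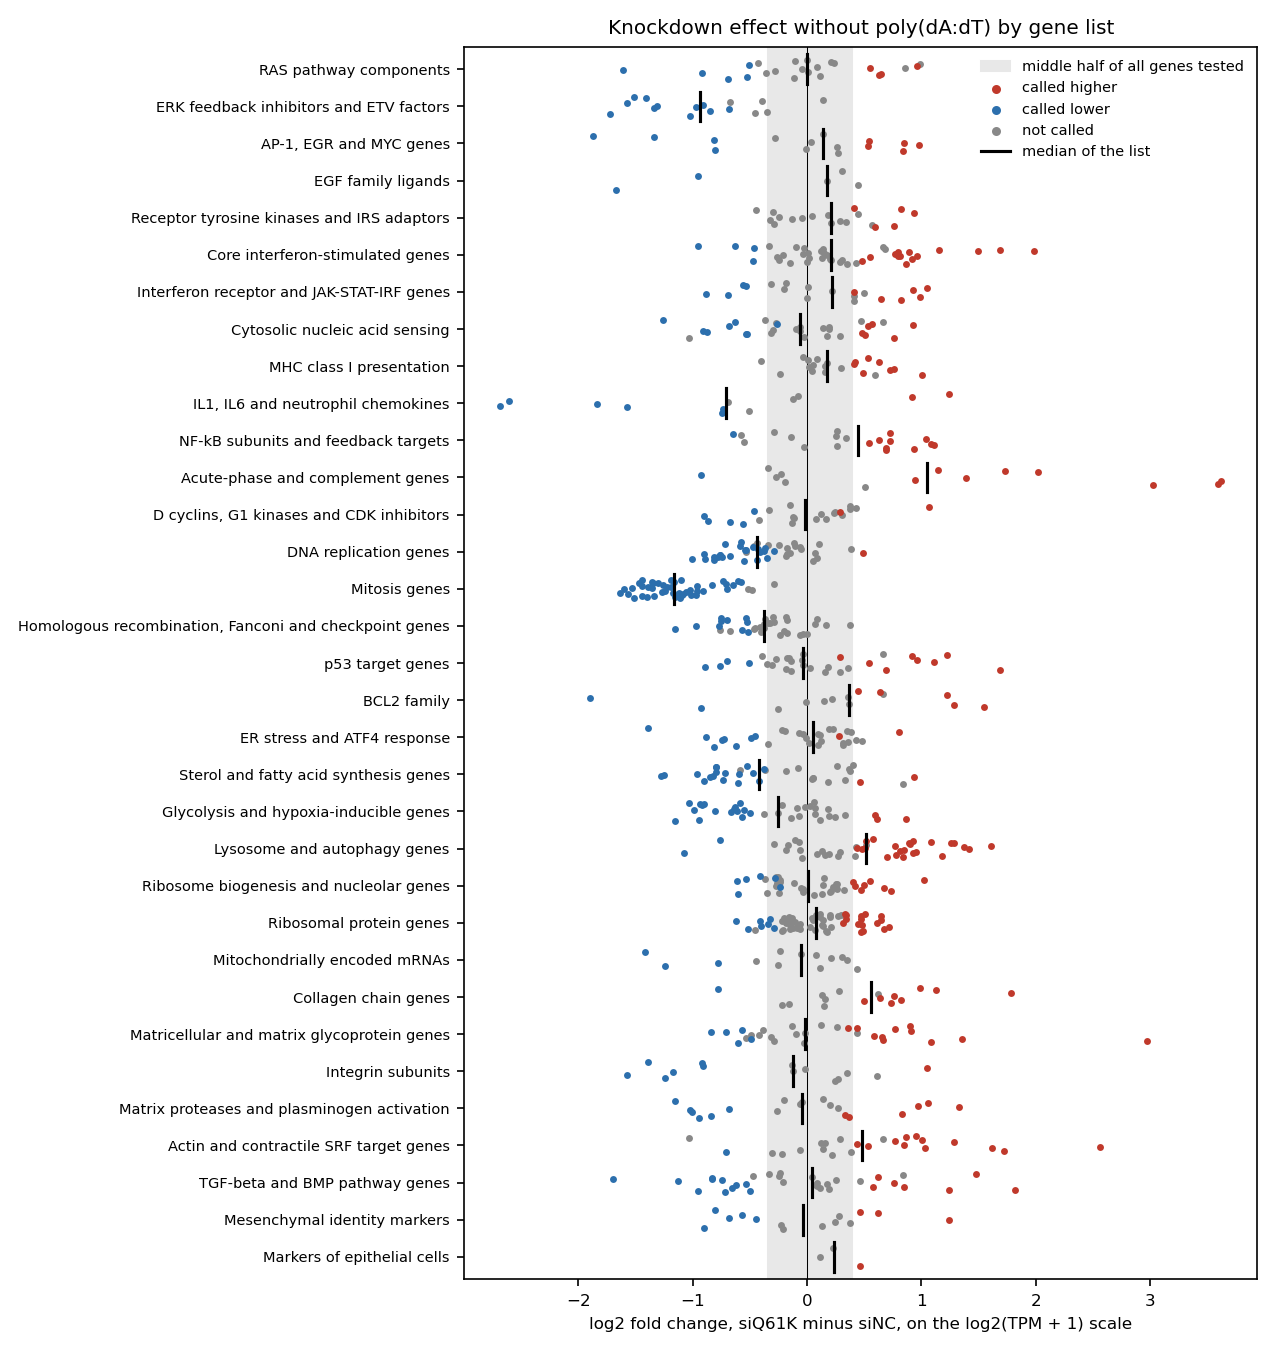
Log2 fold change of siQ61K over siNC (horizontal axis) of every tested member of the gene lists with at least 3 tested members (vertical axis). Points are genes, coloured by call, black bars are list medians and the grey band is the middle range of all genes tested, between the lower and upper quartiles; mitosis genes lie almost wholly to its left and many lysosome genes to its right.

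Inflammatory genes moved in both directions. IL1B, encoding the cytokine interleukin-1 beta, measured 264, 287 and 290 TPM with siNC and 39.6, 43.1 and 46.3 TPM with siQ61K (log2 fold change -2.68, SE 0.14, adjusted p = 6.64e-08). CXCL8, the neutrophil chemokine interleukin-8, went from 120, 97.1 and 78.4 TPM to 16.6, 12.3 and 16.8 TPM (-2.60). In both genes every knockdown library was far below every control library. Of 12 genes of the IL1, IL6 and neutrophil chemokine list, 6 fell and 2 rose, with a median of -0.71 and the same counts after the GC correction. IL1A (-1.84) and IL24 (-1.57), both cytokine genes, also fell. PTGS2 (-0.74) and IL6 (-0.73) were called lower but not after the correction (-0.38 and -0.52), where LIF and IL11 were called lower in their place. PTGS2 passed the filter only through the siNC libraries. PTGS2 and IL6 each also lost the call when 1 of 4 libraries was left out (siNC replicate 1 for both, siNC replicate 2 and siQ61K replicates 1 and 2 for PTGS2, siNC replicate 3 and siQ61K replicates 2 and 3 for IL6), with values of -0.78 to -0.68 and -0.89 to -0.58. The monocyte chemokine CCL2 (1.24) and the macrophage growth factor CSF1 (0.92) rose.

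Of 14 acute-phase and complement genes tested, 8 rose and 1 fell, with a median of 1.05 and the same counts after the GC correction. CFI, C4B, SAA1 and SAA2 were under 1 TPM in all siNC libraries and passed the filter only through the siQ61K libraries, so that they had to differ. Of the other 10 genes 4 rose (IL32, C4A, C1S and CLU) and 1 fell, with a median of 0.16. The list was chosen with earlier results of these data known, and IL32 is a cytokine gene placed in it. IL32, encoding the cytokine interleukin-32, rose from 4.62, 4.97 and 5.50 TPM to 71.3, 79.9 and 68.4 TPM (3.62). The serum amyloid A genes SAA1 and SAA2 were at most 0.862 and 0.576 TPM in the siNC libraries and at least 15.3 and 9.33 TPM in the siQ61K libraries. C4B, a complement component gene, was at 0.739, 0.845 and 0.595 TPM with siNC and 5.47, 6.24 and 6.34 TPM with siQ61K. SAA1 and SAA2, like C4A and C4B, are near-identical gene pairs, and reads may be split between the members of a pair, so their separate values are uncertain. CD55, which protects cells from complement, was the 1 gene that fell (-0.93).

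Of 20 NF-kB subunits and feedback targets, 10 rose and 1 fell, but after the GC correction only 4 rose and 2 fell, and the median moved from 0.44 to 0.21. NFKBIA, the inhibitor that NF-kB itself induces, was among those called in both fits, at 12.8, 16.2 and 16.7 TPM with siNC and 34.3, 30.5 and 32.0 TPM with siQ61K. RELB, a subunit of the non-canonical pathway, was as well (1.09, and 0.56 corrected). TNFAIP2, the gene with the highest value in the list (1.11), was not called after correction (0.63, adjusted p = 0.0900).

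The cell division programme was lower almost throughout. Of 48 mitosis genes, 45 fell and none rose, with a median log2 fold change of -1.16, and 47 fell after the GC correction (median -1.02). The summed level of the list was 4025 to 4471 TPM in the siNC libraries and 1833 to 2086 TPM in the siQ61K libraries. NEK2, a kinase of centrosome separation, measured 51.4, 48.5 and 44.6 TPM with siNC and 13.1, 14.1 and 17.5 TPM with siQ61K (-1.63, SE 0.15, adjusted p = 1.10e-05). HMMR, NUF2 and DLGAP5, all needed at the mitotic spindle or kinetochore, fell by 1.60, 1.57 and 1.53 on the log2 scale. CCNB1, encoding cyclin B1 (-1.47), and CDK1, the kinase that cyclin B1 activates at entry into mitosis (-1.44), fell, as did the proliferation marker MKI67 (-1.12). The 3 mitosis genes not called were ESPL1, INCENP and CCNF, at -0.52, -0.48 and -0.29.

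DNA replication genes fell less uniformly, 24 of 43, with 1 higher and a median of -0.43. After the GC correction 26 fell, and without siNC replicate 2 the number was 15. RRM1, the large subunit of ribonucleotide reductase, measured 102, 124 and 91.6 TPM with siNC and 46.5, 55.8 and 67.4 TPM with siQ61K (-0.90). RPA3, a subunit of the single-strand DNA binding complex, fell by 1.01 on the log2 scale. Of 35 homologous recombination, Fanconi and checkpoint genes 10 fell and none rose, led by RAD51AP1 (-1.15), against 10 and 1 after the GC correction. In G1 control, of 22 genes tested 2 rose and 5 fell, beside 18.0% and 16.1% of all genes. After the GC correction 3 rose and 7 fell, and with deposited values 3 fell without siNC replicate 1 or 2. CCNE1, encoding cyclin E1, rose from 4.25, 6.74 and 4.54 TPM to 11.4, 10.7 and 13.2 TPM (1.06), while CCND1, encoding cyclin D1, measured 127, 148 and 138 TPM with siNC and 109, 102 and 172 TPM with siQ61K and was not called. CDKN1B, encoding the inhibitor p27, was not called either (0.24). CDKN1A, encoding the inhibitor p21, was called higher (0.29), but lost its call without siNC replicate 1 or 2 or siQ61K replicate 1 or 3 (0.25 to 0.33) and stood at -0.03 after the GC correction, so no direction is given for it.

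Promoters of the mitosis genes often carry the cell cycle homology element and CCAAT boxes, through which the DREAM complex and NF-Y act. RefSeq promoters in GRCh38.p14, from 250 bases before to 50 after the start, were at hand for 10023 of the 13835 genes tested (72.4%), in 14691 windows. Listed genes without a window enter none of the counts by motif here or below. The letters TTTGAA, searched on both strands, were found in 60.4% of the windows of mitosis genes and in 10.6% of all windows. CCAAT, on both strands, was found in 73.6% of mitosis windows, 60.4% of DNA replication windows and 35.0% of all. Of 29 mitosis genes with TTTGAA in a window 26 fell, and of 12 without it 12 fell. A match is a description of the letters and was not measured as a binding site. The stretch upstream of TOP2A, encoding the DNA topoisomerase of mitotic chromosomes (-1.40), and that of CCNB2, a mitotic cyclin (-1.34), are shown for these letters: capitals mark TTTGAA or its complement TTCAAA, and CCAAT or its complement ATTGG. TOP2A is on the minus strand at chr17:40417965-40418146 and CCNB2 on the plus strand at chr15:59104896-59105077, each from base 250 to base 69 before the start, and CCNB2 has only CCAAT letters in this stretch.
TOP2A promoter: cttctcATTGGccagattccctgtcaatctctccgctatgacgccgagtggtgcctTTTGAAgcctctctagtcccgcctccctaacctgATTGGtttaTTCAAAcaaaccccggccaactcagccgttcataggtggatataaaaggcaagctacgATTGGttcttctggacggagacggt
CCNB2 promoter: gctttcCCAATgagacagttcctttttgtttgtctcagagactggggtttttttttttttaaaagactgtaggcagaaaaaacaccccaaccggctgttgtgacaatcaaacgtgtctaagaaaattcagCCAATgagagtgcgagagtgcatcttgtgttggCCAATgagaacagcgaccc

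Of 41 lysosome and autophagy genes tested, 23 rose, 2 fell and 16 were not called, with a median log2 fold change of 0.51, and 25 rose and 3 fell after the GC correction (median 0.48). The summed level of the list was 3365 to 3687 TPM with siNC and 5200 to 5819 TPM with siQ61K. GAA, the lysosomal alpha-glucosidase that degrades glycogen, went from 13.1, 15 and 17.8 TPM to 46.7, 42.2 and 57.1 TPM (1.61, and 1.08 corrected). CTSA, encoding the protease cathepsin A, went from 81.0, 102 and 103 TPM to 220, 232 and 246 TPM (1.28). GPNMB, a lysosomal membrane glycoprotein gene, rose by 1.42. The 2 genes that fell were NPC1, the lysosomal cholesterol transporter (-1.07), and the autophagy gene ATG5 (-0.76).

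The CLEAR element bound by TFEB-family factors contains the letters TCACGTG. They were found on either strand in 20% of the promoter windows of lysosome genes, 7 of 35, and in 5.43% of all windows. The 7 lysosome genes with these letters (ATP6V0D1, CTSA, CTSD, CTSF, GAA, LAMP1 and MCOLN1) were all called higher, with a median of 1.08, while of 22 with no match in the window 9 rose and 2 fell, with a median of 0.36. These 2 sets were compared as counts only, without a test. LAMP1, a major lysosomal membrane protein, and MCOLN1, a lysosomal calcium channel, are shown for their repeated letters (in capitals, with 5 and 2 stretches); both are on the plus strand, LAMP1 at chr13:113297026-113297237 and MCOLN1 at chr19:7522562-7522623. TFEB itself (0.42) and TFE3 (0.27) were not called.
LAMP1 promoter: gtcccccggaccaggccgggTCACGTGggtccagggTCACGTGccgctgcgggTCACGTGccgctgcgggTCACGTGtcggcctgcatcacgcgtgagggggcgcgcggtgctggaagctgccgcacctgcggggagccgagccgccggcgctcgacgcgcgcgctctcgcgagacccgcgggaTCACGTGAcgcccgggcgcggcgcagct
MCOLN1 promoter: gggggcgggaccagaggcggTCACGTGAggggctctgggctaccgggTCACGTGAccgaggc

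Of 24 genes of the contractile actin cytoskeleton and other SRF targets, 12 rose, 1 fell and 11 were not called, with a median of 0.49. After the GC correction 11 rose and 5 fell, with a median of 0.27. TPM1, encoding the actin-filament protein tropomyosin 1, measured 158, 173 and 165 TPM with siNC and 552, 517 and 577 TPM with siQ61K (1.72, SE 0.08, adjusted p = 5.21e-08). MYL9, a regulatory myosin light chain gene, went from 13.2, 16.8 and 21.6 TPM to 116, 105 and 93.4 TPM (2.56). TAGLN and CNN2, encoding the actin-binding proteins transgelin and calponin 2, rose by 1.62 and 1.28. TPM3, another tropomyosin gene, fell (-0.70). The CArG box of serum response factor was found in 23.1% of the promoter windows of this list and in 1.07% of all windows, and it can contain the letters CCAAT. Of 7 genes with the box 3 rose and none fell, and of 14 with no match 6 rose and 1 fell. MYL9, TAGLN and ACTB, all called higher, had no promoter window at hand and are in neither set.

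Cell adhesion genes changed in a mixed pattern, with some integrin subunits lower and some secreted matrix genes higher. ITGB1, the beta-1 chain shared by most matrix-binding integrins, measured 915, 953 and 769 TPM with siNC and 277, 262 and 347 TPM with siQ61K (-1.57). ITGA6, the laminin-binding alpha-6 chain, went from 217, 243 and 203 TPM to 89.3, 80.2 and 130 TPM (-1.17). Of 14 integrin subunits 6 fell and 1 rose, and 7 fell and 2 rose after the GC correction. THBS1, the matricellular protein thrombospondin 1, rose from 16.5, 19.3 and 13.5 TPM to 129, 116 and 162 TPM (2.97). SPARC, a collagen-binding matricellular protein, rose from 995, 1238 and 1184 TPM to 2735, 2709 and 3308 TPM (1.36). In the matricellular and matrix glycoprotein list 11 of 29 rose and 5 fell, against 7 and 7 after the GC correction. The count that fell was 3 without siNC replicate 1, siNC replicate 2 or siQ61K replicate 2, and 9 without siQ61K replicate 3. Of 16 collagen chain genes 8 rose and 1 fell, against 4 and 2 after correction, which moved the median from 0.56 to 0.14. COL12A1 was called in both fits with nearly the same value (0.99 and 0.97).

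Matrix proteases and the plasminogen system also moved both ways, with 6 of 19 higher and 6 lower, beside 18.0% and 16.1% of all genes. MMP24 passed the filter only through the siQ61K libraries, so that it had to differ, and of the other 18 genes 5 rose and 6 fell. After the GC correction 5 of the 19 were higher and 9 lower. PLAUR, the receptor of urokinase, measured 274, 258 and 283 TPM with siNC and 136, 132 and 137 TPM with siQ61K (-1.0). PLAT, tissue plasminogen activator, and MMP1, interstitial collagenase, fell by 1.02 and 1.15 on the log2 scale.

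In the TGF-beta and BMP pathway, 2 ligand genes rose while a receptor gene and ID genes fell. TGFB2, a TGF-beta ligand gene, measured 8.63, 11.2 and 7.38 TPM with siNC and 28.1, 34.3 and 41.1 TPM with siQ61K (1.82), and TGFB3 rose by 1.24. TGFBR2, the type II receptor gene, fell by 0.95 on the log2 scale. ID1, a BMP-induced inhibitor of differentiation, went from 469, 496 and 419 TPM to 151, 144 and 129 TPM (-1.70), and ID3 fell by 0.75 on the log2 scale. Of 33 genes 7 rose and 11 fell, beside 18.0% and 16.1% of all genes, against 9 and 14 after the GC correction. The count of genes that fell was 7 without siNC replicate 1 or 2, or siQ61K replicate 1 or 2. SNAI1, a transcription factor of epithelial-mesenchymal transition, rose (1.24), whereas ZEB1, another such factor, fell (-0.90).

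Metabolic genes were mostly lower where they were called. Of 33 sterol and fatty acid synthesis genes 17 fell and 2 rose, with a median of -0.42, and 20 fell and 1 rose after the GC correction. INSIG1, a sterol sensor and target of SREBP, went from 200, 197 and 172 TPM to 80.1, 70.7 and 82.3 TPM (-1.27). IDI1, an isomerase of the mevalonate pathway, went from 238, 199 and 155 TPM to 82.0, 76.8 and 84.6 TPM (-1.25). LSS, the lanosterol synthase gene, rose (0.93).

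Of 35 glycolysis and hypoxia-inducible genes 16 fell and 3 rose, and 18 fell and 2 rose after the GC correction. VEGFA, encoding the angiogenic growth factor, measured 117, 142 and 126 TPM with siNC and 59.7, 45.7 and 68.1 TPM with siQ61K (-1.15). HK2, encoding hexokinase 2, and HIF1A, the hypoxia factor gene, fell by 0.98 and 0.64 on the log2 scale. In the endoplasmic reticulum stress and ATF4 list 8 of 30 fell and 2 rose, against 10 and 4 after the GC correction. Among those lower were the amino acid synthesis genes ASNS (-1.39), PSAT1 (-0.74) and PHGDH (-0.72), while ATF4 (0.23) and DDIT3 (0.38) were not called.

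Genes of translation showed small changes in both directions. Of 58 ribosomal protein genes 16 rose and 7 fell, beside 18.0% and 16.1% of all genes, with values from -0.62 to 0.71. After the GC correction 10 rose and 3 fell. Without siNC replicate 1 the number that rose was 9, without siNC replicate 2 or siQ61K replicate 1 it was 10, and the number that fell was 3 to 5 when any 1 library was left out. Of 38 ribosome biogenesis genes 8 rose and 6 fell, beside 18.0% and 16.1% of all genes, so that both shares were near the background. After the GC correction 7 rose and 3 fell, but with deposited values only 1 rose and 2 fell without siNC replicate 1. Among 13 mitochondrially encoded mRNAs 3 were called lower with deposited values and none after correction, when 2 were called higher.

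Genes of the p53 response and of cell death were called in both directions. Of 30 p53 targets 8 rose and 4 fell, beside 18.0% and 16.1% of all genes, with a median of -0.04, against 8 and 5 after the GC correction. TP53I3, an oxidoreductase gene, went from 16.8, 20.7 and 24.6 TPM to 69.2, 67.8 and 67.2 TPM (1.69). BBC3, encoding the pro-apoptotic protein PUMA, went from 28.1, 29.2 and 34.6 TPM to 80.2, 72.0 and 66.8 TPM (1.23, and 0.64 corrected). MDM2 (-0.14) and BAX (0.66) were not called. In the BCL2 family 5 of 14 were called higher and 2 lower, against 4 and 2 after the GC correction. The 2 that fell, MCL1 (335, 320 and 297 TPM to 157, 149 and 197 TPM) and BCL2A1 (33.8, 24.6 and 36.1 TPM to 9.65, 7.68 and 5.93 TPM), both encode anti-apoptotic proteins. The 5 called higher, BOK (1.55), BMF (1.29), BBC3, BAK1 (0.64) and BAD (0.44), all encode pro-apoptotic members. BMF passed the filter only through the siQ61K libraries. BAD was the 1 of these that lost its call after the GC correction (-0.03), and it also did when any library other than siQ61K replicate 3 was left out (0.34 to 0.58).

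Interferon-stimulated genes were partly higher with siQ61K in the libraries without poly(dA:dT), all of which had received an siRNA. The study names the interferon-alpha response as its outcome, so this list is not independent evidence of a direction. Of 42 core interferon-stimulated genes tested, 14 rose, 4 fell and 24 were not called, with a median log2 fold change of 0.21 against 0.01 over all genes. After the GC correction 20 rose and 4 fell, and with deposited values 2 fell without siNC replicate 1, siNC replicate 3 or siQ61K replicate 1. IFI6, which encodes a mitochondrial protein induced by interferon, measured 11.3, 16.5 and 14.0 TPM with siNC and 58.7, 63.5 and 50.8 TPM with siQ61K (1.98, SE 0.16, adjusted p = 4.94e-06). IFIT1, encoding an RNA-binding antiviral protein, measured 6.40, 7.15 and 5.98 TPM with siNC and 19.4, 20.9 and 20.2 TPM with siQ61K (1.5). IFI27 went from 14.2, 8.99 and 15.5 TPM to 53.2, 51.5 and 28.6 TPM (1.69). In these 3 genes every knockdown library was above every control library. The 4 called lower were BST2 (-0.96), the RNA sensor gene DDX58 (-0.63), SP100 (-0.47) and EIF2AK2 (-0.47). BST2 passed the filter only through the siNC libraries and lost its call without siNC replicate 1 or 3 or siQ61K replicate 1 or 3 (-1.09 to -0.87), and EIF2AK2 lost it when any library other than siQ61K replicate 3 was left out (-0.64 to -0.35) and after the GC correction (-0.20). ISG15 did not pass the filter.

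The interferon-stimulated response element, the motif bound by ISGF3 and IRF factors, was searched on both strands. It was found in 59.6% of the promoter windows of the core interferon-stimulated genes (28 of 47) and in 2.87% of all windows. Its letters can overlap TTTGAA by 3 bases. Of 23 genes with the letters 8 rose and 2 fell, and of 11 with no match 4 rose and 1 fell. IFI6 (minus strand, chr1:27672256-27672368) and IFIT1 (plus strand, chr10:89392487-89392545) are shown with their matches in capitals, since their values were among the 3 highest of the list; IFIT1 holds the letters on the opposite strand.
IFI6 promoter: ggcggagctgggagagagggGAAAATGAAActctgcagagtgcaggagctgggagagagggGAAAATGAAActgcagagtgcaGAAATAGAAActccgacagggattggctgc
IFIT1 promoter: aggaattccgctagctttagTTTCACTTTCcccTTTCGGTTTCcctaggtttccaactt

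Among 19 interferon receptor and JAK-STAT-IRF genes 6 rose and 4 fell, beside 18.0% and 16.1% of all genes. After the GC correction 7 rose and 3 fell. IRF1, a transcription factor induced by interferon, rose from 8.61, 8.83 and 11.5 TPM to 20.8, 18.8 and 23.2 TPM (1.05). STAT2, a subunit of the ISGF3 complex, rose (0.64). IRF9, another subunit, was higher (0.42), but lost its call without siNC replicate 1 or 2 or siQ61K replicate 1 or 2 (0.33 to 0.52) and after the GC correction (0.20, adjusted p = 0.240). The receptor gene IFNAR1 (-0.18) was not called.

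Sensors of cytosolic nucleic acid were not uniformly changed, with 6 of 30 higher and 8 lower, beside 18.0% and 16.1% of all genes, so that the share higher was near the background. After the GC correction 4 were higher and 7 lower, beside 14.2% and 15.4%. The count higher was 2 to 5 when any 1 library was left out, lowest without siNC replicate 1 or siQ61K replicate 3, and the count lower was 4 without siNC replicate 2, siQ61K replicate 1 or siQ61K replicate 2. AIM2, a sensor of cytosolic double-stranded DNA, measured 12, 13.0 and 12.5 TPM with siNC and 5.39, 5.12 and 3.61 TPM with siQ61K (-1.26). CGAS, the sensor that makes cyclic GMP-AMP, was between 0.935 and 2.02 TPM in the 6 libraries and was not called. STING1, the receptor of cyclic GMP-AMP, measured 49.4, 55.3 and 59.8 TPM with siNC and 37.3, 35.1 and 41.1 TPM with siQ61K (-0.52, and -0.84 corrected), but lost its call with deposited values without siNC replicate 2 or 3 or siQ61K replicate 1 or 2 (-0.60 to -0.46). The kinase gene TBK1 (-0.53, adjusted p = 0.0382) was not called after correction (-0.22, adjusted p = 0.180) or without siNC replicate 1 or 2 or siQ61K replicate 1 or 2 (-0.68 to -0.37). IRF3, the transcription factor that TBK1 activates, rose from 34.4, 45.1 and 39.5 TPM to 86.4, 78.3 and 64.5 TPM (0.93, and 0.56 corrected).

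Of 21 genes of MHC class I presentation 8 rose and none fell, and the counts were the same after the GC correction. Without siNC replicate 1, siNC replicate 2 or siQ61K replicate 1 the number was 5. TAPBP, which loads peptide on class I molecules, measured 54.6, 61.9 and 64.4 TPM with siNC and 117, 109 and 143 TPM with siQ61K (1.01). The immunoproteasome subunit genes PSMB8 and PSMB9 rose by 0.76 and 0.72. B2M, the class I light chain gene, was not called (-0.04), but was after the correction. HLA-B rose (0.63, and 0.33 corrected), and reads of the related, polymorphic HLA genes may be assigned to one another.

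Among protein-coding genes with the largest changes, most have no place in the lists above. The 15 highest and 15 lowest genes listed as protein-coding were chosen after values were seen. They had a mean of 5 TPM or more in the higher group and no overlap between the groups. H2AC19 (3.20) and CCN5 (2.89) also met these 2 limits of level and overlap. No gene type was at hand for them, so they could not enter the set, although their values exceeded some of those in it. Of the higher genes SAA1, SAA2, AGT and ODAPH passed the filter only through the siQ61K libraries, and of the lower genes AC034102.2 passed only through the siNC libraries. STC1, encoding the secreted glycoprotein stanniocalcin 1, went from 451, 484 and 454 TPM to 102, 99.8 and 155 TPM (-1.98). NR4A2, an immediate-early nuclear receptor gene, went from 15, 16.7 and 13.4 TPM to 1.49, 1.31 and 2.78 TPM (-2.51). CPA4, a carboxypeptidase gene, rose from 21.2, 19.5 and 21.1 TPM to 144, 142 and 158 TPM (2.79). DYSF, encoding the membrane-repair protein dysferlin, rose from 2.90, 3.86 and 3.96 TPM to 34.9, 33.7 and 38.4 TPM (3.01). AGT, the angiotensinogen gene, was at 0.128, 0.146 and 0.377 TPM with siNC and 11.9, 13.5 and 14.1 TPM with siQ61K, so that it was near 0 in every control library and expressed in every knockdown library. SCG5, a secretory granule protein gene, rose from 21.3, 18.2 and 15.9 TPM to 97.4, 93.4 and 98.1 TPM (2.33).

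Several of the largest values belong to pseudogenes or genes of uncertain quantification. Of the 15 lowest genes of any type 10 were not protein-coding. Of the 15 highest, 7 were not listed as protein-coding. That count includes H2AC19 and CCN5, for which no gene type was at hand, so it is no count of non-coding genes. The ribosomal protein pseudogene RPL23AP42 was at 93.0, 154 and 403 TPM with siNC and 3.23, 0 and 0 TPM with siQ61K, and reads of such a copy may be shared with its parent gene. EIF4A3, encoding an RNA helicase of the exon junction complex, was at 0.0790, 0.622 and 1.00 TPM with siNC and 34.4, 15.6 and 13.5 TPM with siQ61K, an unusual level for a gene that every cell uses. FOXD1-AS1 was at 88.0, 65.3 and 63.6 TPM with siNC and was listed at 0 in all 3 siQ61K libraries. How the authors' counting used strand is not given in the sources used here, so reads of antisense genes cannot be told apart from those of their partners.

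The same knockdown in the 6 libraries with poly(dA:dT), which share no library with the comparison above, repeated part of these changes. With poly(dA:dT), 8.88% of the same genes were called higher and 13.6% lower. Of the 2484 genes called higher, 583 were called higher again, 132 were called lower and the rest were not called. Of the 2228 called lower, 677 were called lower again and 65 higher. Of the 590 genes at least 2-fold higher, 236 were called higher again and 4 lower, and of the 410 at least 2-fold lower, 235 were called lower again and 12 higher. Of the 30 genes listed as protein-coding above, 26 were called in the same direction again. NRAS fell again (-1.10). Of the 16 ERK feedback genes 14 fell, of the 48 mitosis genes 45 fell (42 of them in both comparisons), and of the 41 lysosome genes 19 rose and 2 fell. Other lists did not keep their counts. With poly(dA:dT) 6 of the 24 actin and SRF target genes rose and 7 fell (median 0.01), 3 of the 20 NF-kB genes rose and 4 fell, 2 of the 14 BCL2 family genes rose and 6 fell, and 3 of the 16 collagen genes rose and 1 fell. In these lists the difference of the knockdown effect, tested as an interaction, was called in no member after the GC correction. With deposited values it was called in some members of each. IL1B (-2.65), IL32 (3.38) and THBS1 (3.04) had nearly the same values as without poly(dA:dT). CXCL8 was lower again but by less (-1.55). That difference was called with deposited values (limma interaction, adjusted p = 0.0131) but not after the GC correction (adjusted p = 0.164). JUNB (-0.01), JUN (-0.25), RELB (-0.17), IRF3 (0.04) and ERBB2 (-0.23), all higher without poly(dA:dT), were not called with it. For none of these was a difference called by the interaction test both with deposited values and after the GC correction.

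Of the lists described here, the core interferon-stimulated genes had the largest share of members whose knockdown effect differed between the conditions. With poly(dA:dT) 39 of the 42 were higher and none lower, with a median of 1.75. The difference of the knockdown effect, tested as an interaction, was called in 34 of the 42, all larger with poly(dA:dT), against 6.52% of all genes tested, and in 35 after the GC correction, against 1.49% of all genes. Over all genes the interaction was called in 2728 (19.7%) but in only 301 (2.24%) after the GC correction. For the mitosis list, the interaction was called in 9 of 48 genes with deposited values and in none after correction.

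**Figure D5:**
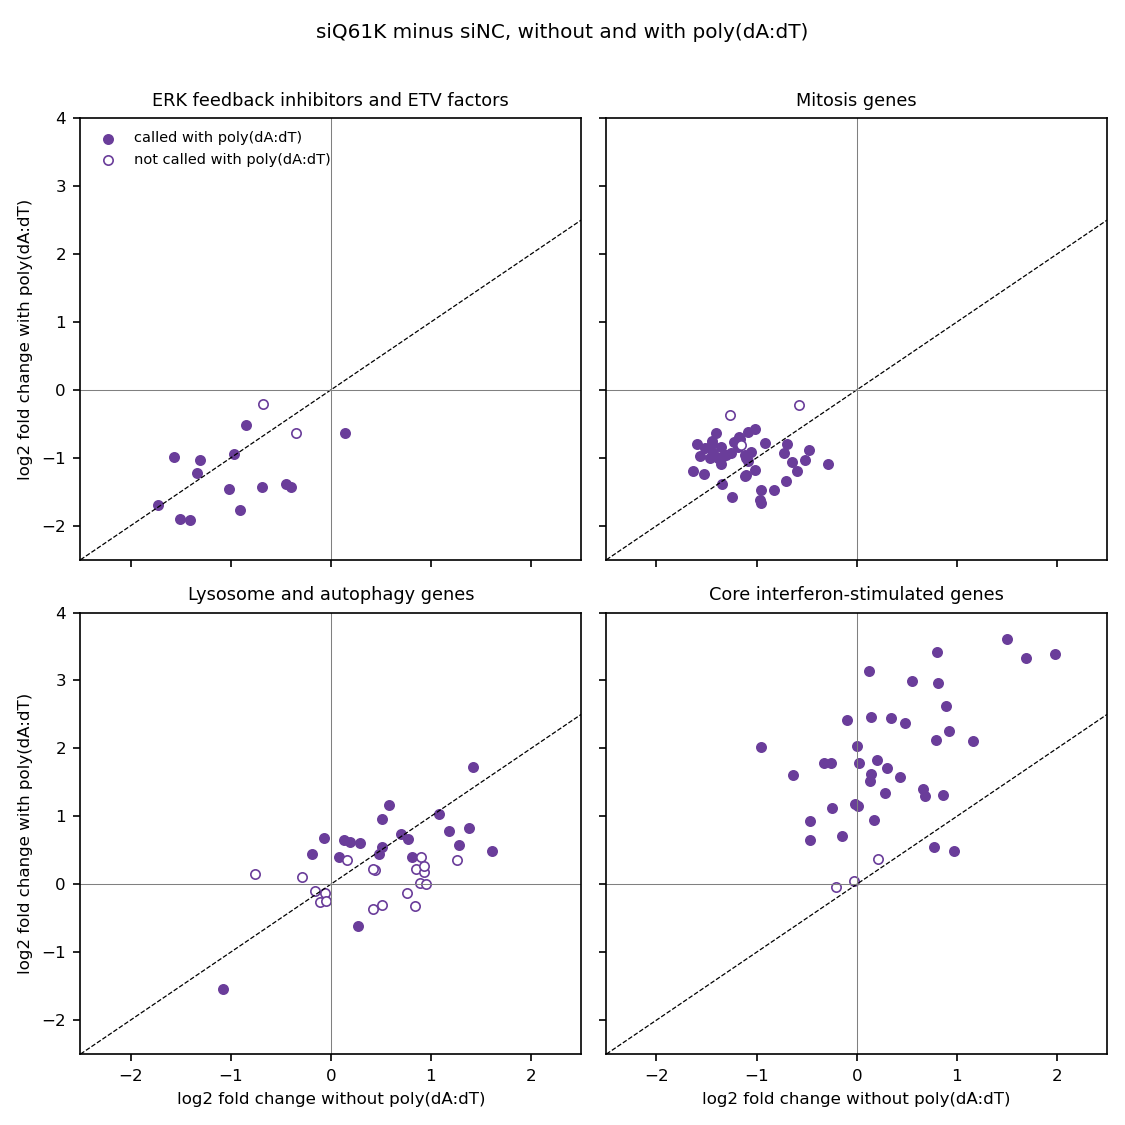
Log2 fold change of siQ61K over siNC without poly(dA:dT) (horizontal axis) and with it (vertical axis) for the members of 4 lists. Points are genes, filled where the gene was called with poly(dA:dT), and the dashed line marks equal values; 39 of 42 interferon-stimulated genes were called with poly(dA:dT), most of them far above the line, while 42 of the 48 mitosis genes were called lower in both.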

How the data were processed

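RNA of HT1080 cells was sequenced in 12 libraries, 3 in each of 4 groups, and 6 libraries without poly(dA:dT) enter the comparison described here. Per the labels' protocols, libraries were made with a NEBNext Ultra kit. The authors deposited a table of TPM per gene symbol, a unit that keeps no sequencing depth, so no counting interval is given. The submitters' processing notes name Salmon 0.8.0 and hg19; the annotation is not given in the sources used here. Reading the column names NC, SI and PD as siNC, siQ61K and poly(dA:dT) is an inference from those names. Of 56227 entries, 984 that share 58 symbols were left out.

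Genes with 1 TPM or more in 3 or more of the 6 libraries were fitted as log2(TPM + 1) with limma 3.58.1 in R 4.3.3, with 1 mean per group over the 12 libraries, 8 residual degrees of freedom and a variance trend. P-values were adjusted over all genes tested by the Benjamini-Hochberg method, with a threshold of 0.05. Within groups, libraries correlated at 0.975 to 0.985 (Pearson, across genes, which are not independent replicates), and between the siNC and siQ61K groups at 0.935 to 0.959. In an added correction, a lowess curve (span 0.3) on GC content and then on length of the longest GENCODE 29 transcript was subtracted in each library, for the 13459 genes with both values (97.28%). The scripts were tested on simulated data. Alternatives changed the pseudocount, level filter, scaling, variance model, libraries fitted, replicate block and each library in turn.

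The named genes were NRAS, the 15 highest and 15 lowest called genes, up to 4 called members of each list by size of change, and 30 genes listed by name, where all but the last needed 5 TPM or more as the mean of their higher group. DUSP6 and ISG15 of these were not tested. Some genes are not reported here. Other list members in the text, and the 30 protein-coding genes, were chosen after values were seen. The 35 lists hold 953 genes, of which 950 matched a symbol. Members and lists were chosen with earlier results of these data known.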

Additional observations from a re-analysis of the deposited data

Results flagged for a closer look

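The knockdown effect of siQ61K differed between cells with and without poly(dA:dT) in 70 of 178 named genes by the limma interaction test with deposited values, and in 21 of these also after the GC and length correction. These 21 are given as the log2 fold change with poly(dA:dT) minus that without it, each with both values. All are adjusted over all genes, and no explanation was tested. Over all genes the interaction was called in 19.7% with deposited values and in 2.24% after the correction. Many named genes were chosen by the size of their change without poly(dA:dT), a value that the difference subtracts. That choice by itself favours a difference, so the count of named genes is no measure of how common differences are.

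Among interferon and immune genes the effect shifted upward in 7. IFIT1 was 2.11 higher, at 3.61 with and 1.5 without poly(dA:dT). IFI27 was 1.64 higher (3.33 and 1.69), IFI6 1.41 higher (3.39 and 1.98) and IFI35 0.95 higher (2.11 and 1.16). STAT2 was 0.78 higher (1.42 and 0.64) and HLA-B 0.73 higher (1.36 and 0.63). The DNA sensor gene AIM2 was 1.37 higher, at 0.12 with poly(dA:dT) and -1.26 without.

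Other protein-coding genes differed as well. MANF, an endoplasmic reticulum stress gene, differed by 0.9 (0.01 with and -0.88 without), FANCG, a Fanconi gene, by 0.71 (-0.05 and -0.76), and the peroxisomal oxidase gene ACOX2 by 0.55 (-1.24 and -1.78). PHLDA3, a p53 target, differed by -1.65, from 1.11 without to -0.54 with poly(dA:dT). FHL1 differed by 4.26 (0.88 and -3.39) and EIF4A3 by -4.04 (-0.29 and 3.75).

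The other 8 differences were in processed pseudogenes, antisense genes and long intergenic RNAs. Reads of pseudogenes can be shared with near copies, and several of these genes were listed at 0 in a library, so their fitted values depend on the pseudocount of 1 and are no measure of fold. RPL23AP42 differed by 12.01 (5.20 with and -6.80 without), FOXD1-AS1 by 10.06 (3.88 and -6.18), AP000879.1 by 5.47 (2.21 and -3.26), AC005912.1 by 4.65 (1.36 and -3.29) and AC005339.1 by 3.89 (0.72 and -3.17). FABP5P7 differed by -7.62 (-3.20 with and 4.42 without), AL583722.1 by -6.18 (-1.70 and 4.47) and SRP9P1 by -4.31 (0.00 and 4.31).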

How the results depend on the processing

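NRAS stayed lower and past the threshold under all 20 alternatives, at -1.79 to -1.29. The number of genes called (4712) fell to 2650 without a filter on low values and rose to 7728 with sample weights, and leaving out 1 library gave 3120 to 4670, lowest without siNC replicate 1 and 4670 without siNC replicate 3. The number whose knockdown effect differed with poly(dA:dT), 2728, was 111 without a filter, 5830 with sample weights, 301 after the GC and length correction, and 1085 to 3285 with 1 library left out (1085 without siNC replicate 1, 1717 without siNC replicate 2 and 1528 without siQ61K replicate 1). Of 170 named genes called, 128 kept the call in every alternative that tested them, 150 kept it whichever library was left out, and 1, CDKN1A, reversed, to -0.028 after the GC correction with or without the block. Genes not called also turned sign. With or without the block, the GC correction gave -0.231 for HRAS, 0.186 for SOS1 and 0.134 for BRAF, and leaving out 1 library gave -0.36 to 0.05 for SOS1 and -0.308 to 0.02 for BRAF. Same-numbered libraries had deviations correlated at -0.288 to 0.279, which gives no sign of pairing by number but cannot exclude it. The labels state no pairing. With the replicate block 4520 genes were called, 3822 with block and GC correction (212 for the difference with poly(dA:dT)), and NRAS stood at -1.61 and -1.29. Counts of 3 or fewer in a list moved by over 1.5 times with single libraries in 11 of the lists. The cause of these differences was not tested. TPM keeps no depth, so what depth limits could not be computed.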
